A study of Mus musculus with 18 samples.

Results

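The genes described here are 8 genes that mark basophils and mast cells: Prss34, Mcpt8, Cpa3, Gzmb, Ms4a2, Fcer1a, Hdc and Il1rl1. They were chosen by symbol, and all 8 are listed in each of 3 tables of FPKM, a read number divided by transcript length and by the reads mapped in the library. The tables of MPPs and of CD115- CDPs each hold 19710 genes, and the CLP table holds 18378. RNA was sequenced from bone marrow progenitors of C57BL/6 mice aged 6 to 8 weeks. WT mice were Trim33fl/fl and carried no Cre, and KO mice were Trim33fl/fl Cre-ERT2, in which a systemically expressed Cre is switched on by tamoxifen. Both genotypes were given tamoxifen (2 mg a day for 5 days) and were killed after 7 further days, so that the deletion of Trim33 cannot be told apart from an effect of active Cre, and every cell lineage of the KO mice could be deleted. Multipotent progenitors (MPPs; Lin-Sca-1+CD117+CD34+FLT3+), common DC progenitors without CD115 (CD115- CDPs; Lin-CD11c-FLT3+CD117intCD115-CD127-) and common lymphoid progenitors (CLPs; CD127+FLT3+ cells that were also Sca-1+CD117+ and lacked CD11c and lineage markers) were sorted, with 3 WT and 3 KO libraries for each population and 18 in all.

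Basophils and mast cells are granulocytes that carry the high affinity receptor for IgE and that release stored proteases, histamine and cytokines when the receptor is cross-linked. Both arise in the bone marrow from progenitors that also give rise to other myeloid cells, under the control of GATA factors, C/EBPalpha and STAT5, and basophils expand with IL-3. The gates were set for earlier progenitors, although mast cells also carry CD117, and in such a population a small number of cells that have begun this programme and a low level in many cells give the same bulk value. Fewer cells of a type and less RNA per cell cannot be told apart in these libraries.

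The proximal promoters of 5 of the genes are shown because these are the genes whose FPKM was lower in every KO-labelled MPP library than in any WT one, and because Gata1 was lower in the same libraries. The sequences are the 250 bases before a transcription start from RefSeq on GRCm38.p6, the build that mm10 denotes. They are written 5′ to 3′ on the strand of the gene. Capitals mark GATAA, the core of the GATA motif, on either strand, so that a match on the other strand reads TTATC.
Prss34: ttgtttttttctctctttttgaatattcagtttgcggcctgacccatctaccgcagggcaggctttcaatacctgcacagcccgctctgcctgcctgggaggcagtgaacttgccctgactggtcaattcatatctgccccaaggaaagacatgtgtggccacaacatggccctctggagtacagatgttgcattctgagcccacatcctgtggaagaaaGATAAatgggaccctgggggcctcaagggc
Mcpt8: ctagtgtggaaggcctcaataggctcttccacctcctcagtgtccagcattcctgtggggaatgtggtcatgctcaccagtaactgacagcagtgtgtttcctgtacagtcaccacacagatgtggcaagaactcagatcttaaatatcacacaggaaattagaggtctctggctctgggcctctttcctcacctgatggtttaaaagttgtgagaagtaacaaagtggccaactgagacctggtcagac
Cpa3: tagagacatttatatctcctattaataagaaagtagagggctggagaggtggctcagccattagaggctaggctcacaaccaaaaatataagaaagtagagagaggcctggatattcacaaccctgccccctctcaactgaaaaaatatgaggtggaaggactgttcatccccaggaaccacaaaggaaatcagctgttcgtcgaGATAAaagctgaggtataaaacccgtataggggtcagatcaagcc
Ms4a2: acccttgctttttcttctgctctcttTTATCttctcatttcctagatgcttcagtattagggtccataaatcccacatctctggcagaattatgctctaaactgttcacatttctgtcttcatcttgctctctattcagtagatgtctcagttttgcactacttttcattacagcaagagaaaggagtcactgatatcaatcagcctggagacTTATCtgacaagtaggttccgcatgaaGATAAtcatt
Fcer1a: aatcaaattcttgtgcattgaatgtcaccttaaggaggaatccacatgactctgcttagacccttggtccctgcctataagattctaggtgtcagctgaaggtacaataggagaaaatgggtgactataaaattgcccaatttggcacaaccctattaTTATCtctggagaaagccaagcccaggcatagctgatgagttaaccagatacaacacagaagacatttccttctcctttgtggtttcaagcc
The windows lie at chr17:25298144-25298393 on the plus strand for Prss34, and on the minus strand at chr14:56085198-56085447 for Mcpt8, chr3:20242182-20242431 for Cpa3, chr19:11623720-11623969 for Ms4a2 and chr1:173227230-173227479 for Fcer1a. GATAA was found in 1 copy in Prss34, 26 to 30 bases before the start, in 1 copy in Cpa3, 41 to 45 bases before it, in 1 copy in Fcer1a and in 3 copies in Ms4a2. Mcpt8, Gzmb and Hdc had none, and both Il1rl1 promoters had it, so that 6 of the 9 promoter windows of these genes held the motif, against 22.5% of 32536 promoter windows of this length. The Mcpt8, Hdc and Il1rl1 windows lie inside the gene spans given below, so bases before the 5′ ends of those spans were not searched. The Cpa3, Ms4a2 and Fcer1a windows overlap their spans in part. GAGGAA, the core bound by PU.1 and other ETS factors, was found on either strand in Mcpt8 and Fcer1a only, against 23.4% of all windows. TTGCNNCAA, the C/EBP palindrome, was found in none of the 8 genes, against 1.75% of all windows. The motifs searched do not overlap in these windows, and a match describes letters only. Whether GATA1 or any other factor acts on these genes was not tested.

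Where these genes lie is as follows in the RefSeq annotation of GRCm38. Mcpt8 (Entrez 17231, chromosome 14 from 56082163 to 56085499) and Gzmb (Entrez 14939, chromosome 14 from 56258836 to 56262334) lie in the chymase locus, and Prss34 (Entrez 328780, chromosome 17 from 25298394 to 25300168) lies among the tryptases. Cpa3 (Entrez 12873) is on chromosome 3 from 20215616 to 20242209, and Hdc (Entrez 15186) is on chromosome 2 from 126593659 to 126624025. Fcer1a (Entrez 14125, 173221269 to 173227232) and Il1rl1 (Entrez 17082, 40404864 to 40465418) are on chromosome 1, and Ms4a2 (Entrez 14126) is on chromosome 19 from 11615517 to 11623790. The values are for whole genes, and reads shared with a near-identical family member would have been divided by the quantification, which was not tested.

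Facts of the whole series that bear on these genes are few. Each library held an estimated 19.2 to 21.3 M mapped reads, as judged by the steps between low FPKM values, so that 1 read was worth between 0.0401 and 0.0444 FPKM for Prss34 and between 0.0495 and 0.0548 FPKM for Fcer1a. Trim33, the deleted gene, was 10.42, 10.12 and 8.78 FPKM in WT MPPs and 9.71, 11.66 and 4.80 FPKM in the libraries labelled KO. In CD115- CDPs Trim33 was 14.30, 15.23 and 8.27 FPKM in WT and 9.64, 8.28 and 4.03 FPKM in KO, and in CLPs it was 12.36, 7.01 and 8.86 FPKM in WT and 7.52, 5.60 and 7.66 FPKM in KO. The genotypes overlapped in all 3 populations, and Trim33 passed the test in none of them (adjusted p = 0.63, 0.528 and 0.255, limma), although with the replicate block its log2 fold change of -0.74 in CD115- CDPs had an adjusted p of 0.0258. The block pairs WT and KO libraries of equal number, a pairing that the labels do not state. In MPPs 1 of the KO-labelled libraries had more Trim33 than any WT library, so the MPP libraries are called KO-labelled below; removal of some exons need not lower a gene-level FPKM. Of the genes that define the gates, Flt3 was between 146.80 and 329.52 FPKM in every library, Cd34 was 440.86 to 496.53 FPKM in WT MPPs, and Il7r and Csf1r, which the CD115- CDP gate excludes as proteins, were still detected in CD115- CDPs, at 3.17 to 20.60 and 9.24 to 136.77 FPKM. None of the 4 gate genes was called in MPPs (median log2 fold change -0.48) or in CD115- CDPs (-0.40). The 6 genes listed for CLPs (0.37) include Rag1 and Dntt, on which no cells were sorted, and Rag1 was called higher, at 1.67. Csf1r, at a log2 fold change of -2.01, was called lower in CD115- CDPs with the replicate block (adjusted p = 0.000823). The libraries with number 3 of the CD115- CDPs stood apart in both genotypes, with 4331 and 4020 summed FPKM over 12 markers of neutrophils and their precursors against 635.7 to 1042 in the other 4 libraries.

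In the WT libraries the granule proteases gave most of the signal of these genes. On the FPKM scale, which is per length of transcript, Prss34 (a basophil tryptase) reached 120.6 ± 7.73 FPKM (SD, n = 3) in WT MPPs, followed by Mcpt8 (a basophil granule protease of the chymase locus) at 65.2 ± 5.39. Prss34 and Mcpt8 together made up 85.4% of the summed mean FPKM of the 8 genes in WT MPPs, 82.3% in CD115- CDPs and 78.7% in CLPs of that genotype. Below them in WT MPPs came Cpa3 (carboxypeptidase A3, found in granules of mast cells and of immature basophils) at 12.5 ± 0.266 FPKM, Hdc (histidine decarboxylase, which makes histamine) at 10.9 ± 1.11 and Fcer1a (the IgE-binding alpha chain of the receptor) at 4.29 ± 0.469. Ms4a2 (the beta chain of the receptor) was at 2.31 ± 0.188 FPKM, Gzmb (granzyme B, shared with cytotoxic lymphocytes) at 0.983 ± 0.618 and Il1rl1 (the IL-33 receptor ST2, shared with group 2 innate lymphoid cells) at 0.733 ± 0.0737. In this order every neighbouring pair was separate over the 3 WT MPP libraries except Gzmb and Il1rl1, whose ranges of 0.45 to 1.66 and 0.65 to 0.79 FPKM overlapped.

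The levels fell from MPPs to CD115- CDPs to CLPs for 6 of these genes in WT. The 3 tables were made separately, so these are levels set side by side with no test. Mean WT FPKM was 10.6 times as high in MPPs as in CLPs for Prss34, 12.4 times for Mcpt8, 22.8 times for Cpa3, 14.0 times for Fcer1a, 8.34 times for Ms4a2 and 3.96 times for Hdc. The WT ranges of the 3 populations were separate for Prss34, Mcpt8, Cpa3 and Hdc, whereas those of MPPs and CD115- CDPs overlapped for Fcer1a and those of CD115- CDPs and CLPs overlapped for Ms4a2. Gzmb and Il1rl1 had another order, with their highest WT means in CD115- CDPs, at 5.39 ± 5.37 and 1.37 ± 0.931 FPKM, and the CD115- CDP and MPP ranges of both overlapped. In CLPs the receptor genes were near the floor of detection, with 0.26 to 0.36 FPKM of Fcer1a in WT and 0.05 to 0.26 in KO, about 1 to 7 reads a library.

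**Figure D1:**
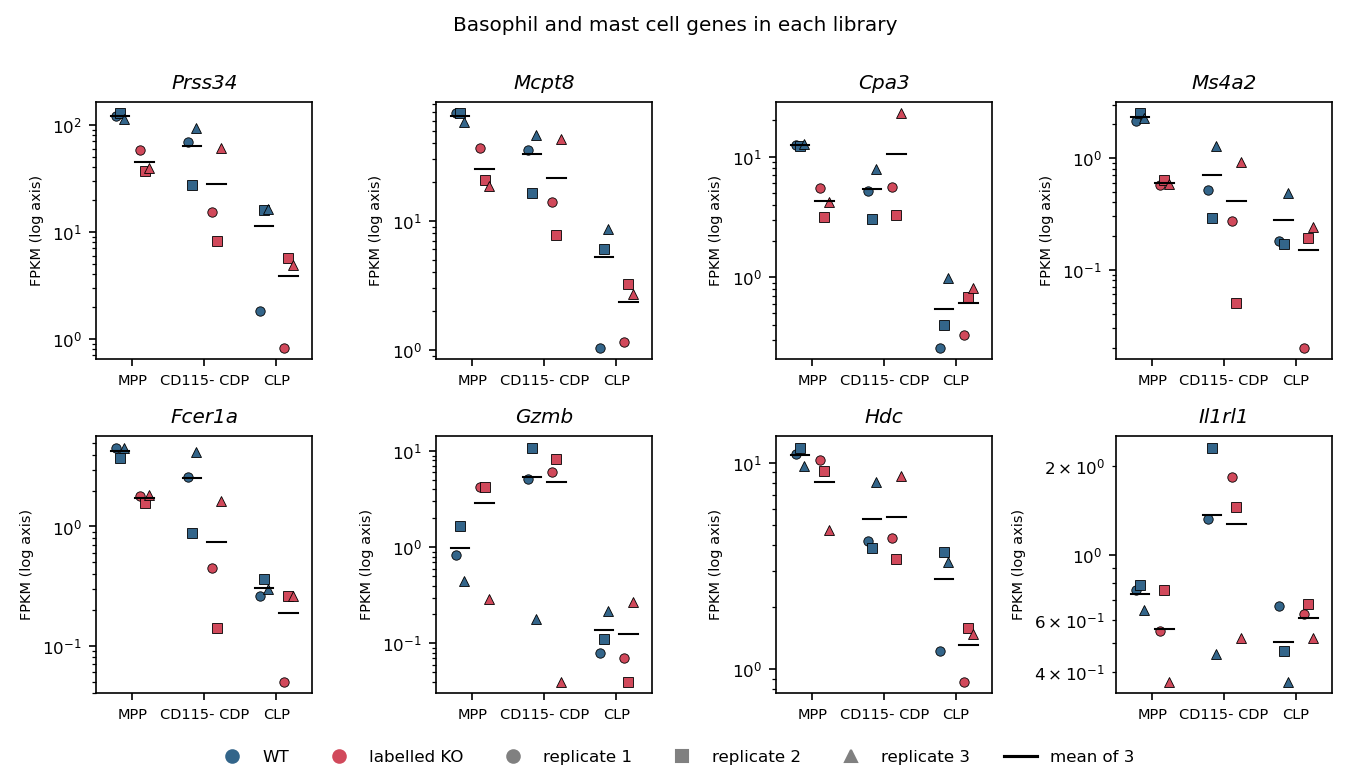
FPKM of each of the 8 genes in every library, on a log axis, by population, with WT in blue, KO-labelled in red, a shape for each replicate number and a bar at the mean of 3 libraries. In MPPs the red points of Prss34, Mcpt8, Cpa3, Ms4a2 and Fcer1a all lie below the blue ones, and in CD115- CDPs and CLPs the red and blue points of every gene overlap.

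The first comparison asked whether Trim33 deletion changed these genes in MPPs, the earliest population. The granule proteases Prss34, Mcpt8 and Cpa3 and the receptor chains were lower in the KO-labelled MPPs, and Hdc, Gzmb and Il1rl1 overlapped between genotypes. Prss34 was 121.00, 128.14 and 112.69 FPKM in the WT MPP libraries and 57.78, 36.90 and 39.64 FPKM in the KO-labelled ones. Every KO-labelled value lay below the lowest WT value, and the KO-labelled mean was 0.371 of the WT mean. The log2 fold change was -1.44 (95% interval -1.85 to -1.02, adjusted p = 0.0118, limma on log2(FPKM + 1)). Mcpt8 was 68.32, 68.27 and 58.96 FPKM in WT and 36.55, 20.71 and 18.62 FPKM in KO-labelled MPPs, again without overlap, for a log2 fold change of -1.39 (-1.97 to -0.81, adjusted p = 0.035, limma). Cpa3 was 12.61, 12.17 and 12.65 FPKM in WT and 5.53, 3.16 and 4.20 FPKM in KO-labelled MPPs. Its highest WT library was 1.04 times its lowest, the KO-labelled libraries lay well below both, and its log2 fold change was -1.37 (-1.80 to -0.94, adjusted p = 0.016, limma).

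The receptor genes fell with the proteases in MPPs. Ms4a2 was 2.14, 2.51 and 2.27 FPKM in WT and 0.57, 0.63 and 0.58 FPKM in KO-labelled MPPs. The 3 KO-labelled libraries were nearly alike, their mean was 0.257 of the WT mean, and the log2 fold change was -1.05 (-1.30 to -0.80, adjusted p = 0.00634, limma). Fcer1a was 4.53, 3.75 and 4.59 FPKM in WT and 1.79, 1.58 and 1.85 FPKM in KO-labelled MPPs. It also separated the genotypes, with a KO-labelled mean of 0.406 of the WT mean. Its log2 fold change was -0.95 (-1.25 to -0.65, adjusted p = 0.0167, limma), which passed the adjusted p and missed the minimum fold change of 1 on this scale, a scale that understates the change of low genes.

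The other 3 genes overlapped between the genotypes in MPPs. Hdc was 11.06, 11.85 and 9.65 FPKM in WT and 10.35, 9.08 and 4.73 FPKM in KO-labelled MPPs, and only the KO-labelled library with number 3 lay far below WT. Gzmb was 0.84, 1.66 and 0.45 FPKM in WT and 4.23, 4.20 and 0.29 FPKM in KO-labelled MPPs. The KO-labelled libraries 1 and 2 were above all WT libraries and library 3 was below them all, so the log2 fold change was 0.77 with an interval from -0.58 to 2.12 (adjusted p = 0.401, limma). Without the KO-labelled library 3 the Gzmb log2 fold change was 1.44 (adjusted p = 0.00447, limma); the calls over all genes then rose from 183 to 916, 548 of them lower, and the library left out also had the lowest Trim33. Il1rl1 was 0.76, 0.79 and 0.65 FPKM in WT and 0.55, 0.76 and 0.37 FPKM in KO-labelled MPPs, with a log2 fold change of -0.16 (-0.46 to 0.14).

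Genes are called here where the p adjusted over all tested genes is at most 0.05 and the log2 fold change is 1 or more in size. By this rule 4 of the 8 genes were called in MPPs, all lower, against 1.32% of 12372 tested genes called lower. All KO-labelled libraries lay below all WT libraries for 5 of the 8, against 23.3% of the tested genes. The median log2 fold change of the 8 genes was -1.0 and that of all tested genes was -0.11. With the block for replicate number the same 4 genes were called lower, again against 1.32% of tested genes. Scaling by median ratios, which moved the median of all genes from -0.11 to 0.00, left Prss34 and Cpa3 called; Mcpt8 then had an adjusted p of 0.0624 and Ms4a2 a log2 fold change of -0.99. Leaving out any 1 of the 3 WT libraries left none of the 8 called, with log2 fold changes that stayed negative for all 4. Over all tested genes these fits called 54 to 60, against 183.

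**Figure D2:**
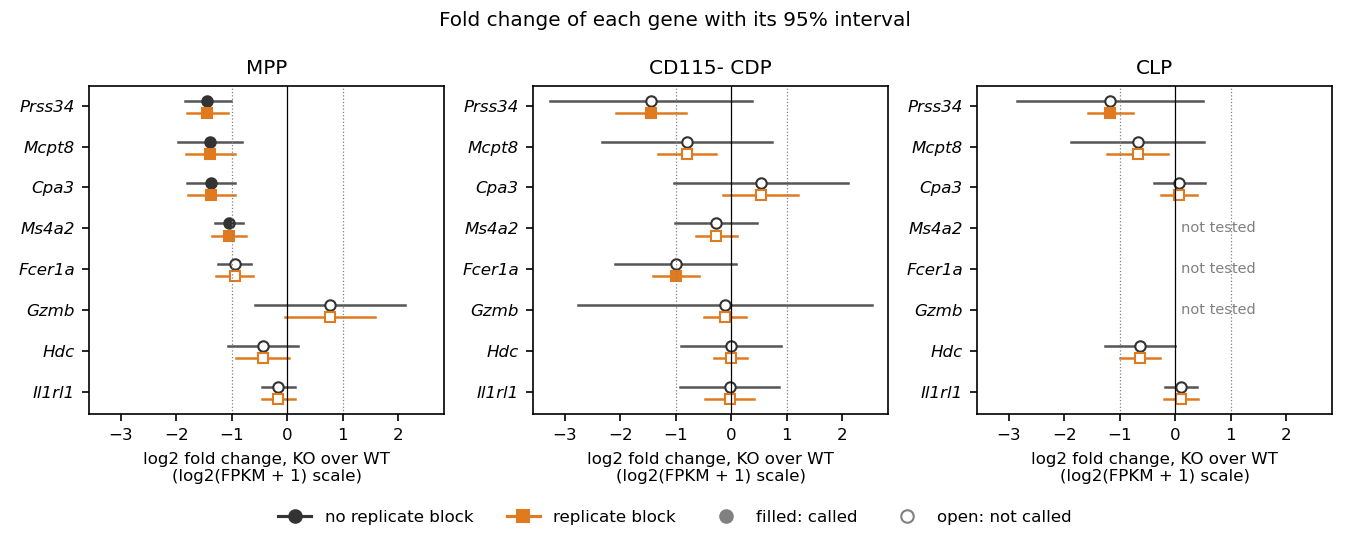
Log2 fold change of KO over WT on the log2(FPKM + 1) scale for each gene, in MPPs, CD115- CDPs and CLPs, with its 95% interval from the fit without (grey circles) and with (orange squares) the replicate block; filled symbols are called, dotted lines mark a change of 1, and 3 genes were too low in CLPs to be tested. The filled symbols are 4 genes in MPPs in both fits, and with the block also Prss34 and Fcer1a in CD115- CDPs and Prss34 in CLPs.

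In CD115- CDPs the same comparison gave wider intervals, because the libraries of each genotype differed among themselves by replicate number. Prss34 was 69.36, 27.52 and 93.37 FPKM in WT and 15.45, 8.15 and 60.57 FPKM in KO. In both genotypes library 3 was highest and library 2 lowest, and each KO library lay below the WT library of its number, at 0.223, 0.296 and 0.649 of it. The log2 fold change was -1.45 (-3.28 to 0.38, adjusted p = 0.561, limma) without the block and the same with an interval from -2.08 to -0.82 with the replicate block (adjusted p = 0.0297). In CD115- CDPs and CLPs the pairing behind the block was inferred from these same data, so calls that need the block depend on it. Fcer1a was 2.60, 0.88 and 4.17 FPKM in WT and 0.45, 0.14 and 1.62 FPKM in KO. It followed the same order of libraries, with ratios of 0.173, 0.159 and 0.388, and a log2 fold change of -1.0 (adjusted p = 0.512 without and 0.0264 with the replicate block, limma).

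Mcpt8 and Ms4a2 were lower in KO than in WT within each of the 3 numbers in CD115- CDPs without passing either test. Mcpt8 was 35.44, 16.59 and 46.59 FPKM in WT and 14.07, 7.83 and 42.98 FPKM in KO, with a ratio of 0.923 in library 3 against 0.397 and 0.472 in libraries 1 and 2 (adjusted p = 0.725 without and 0.0699 with the replicate block, limma). Ms4a2 was 0.52, 0.29 and 1.28 FPKM in WT and 0.27, 0.05 and 0.91 FPKM in KO. Its log2 fold change was -0.27 (adjusted p = 0.825 without and 0.276 with the block, limma), at levels of about 1 FPKM or less where this scale is compressed.

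Cpa3 did not follow Prss34 and Mcpt8 in CD115- CDPs. It was 5.21, 3.06 and 7.83 FPKM in WT and 5.59, 3.25 and 22.91 FPKM in KO, so that libraries 1 and 2 were nearly alike between genotypes and KO library 3 was 2.93 times as high as WT library 3. The log2 fold change was 0.53 (-1.04 to 2.10, adjusted p = 0.843, limma), and it was -0.20 without KO library 3. Ctsg (cathepsin G), a protease of neutrophil precursors as well as mast cells, was 503.46 FPKM in KO library 3 against 330.42 in WT library 3 and 54.58 to 74.97 in the other 4; its part in the Cpa3 value was not tested. Hdc was 4.17, 3.87 and 8.06 FPKM in WT and 4.30, 3.40 and 8.59 FPKM in KO, almost equal within each number, with a log2 fold change of -0.01 (-0.91 to 0.90).

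Gzmb and Il1rl1 ran the other way across the CD115- CDP libraries. Gzmb was 5.09, 10.90 and 0.18 FPKM in WT and 6.08, 8.20 and 0.04 FPKM in KO. Library 3 was lowest in both genotypes, by a factor of 60.6 between the highest and lowest WT library and of 205 in KO, so that the replicate number and not the genotype label separated the values, with a log2 fold change of -0.11 (-2.76 to 2.54). Il1rl1 was 1.32, 2.32 and 0.46 FPKM in WT and 1.84, 1.45 and 0.52 FPKM in KO, also lowest in library 3 of both genotypes. Its log2 fold change was -0.03 (-0.92 to 0.86).

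None of the 8 genes was called in CD115- CDPs without the block, where 0.0654% of 12229 tested genes were called lower and none of the 8 had an unadjusted p under 0.05, against 1288 of all tested genes. With the replicate block 2 of the 8 (Prss34 and Fcer1a) were called lower, against 1.46% of tested genes. The ranges of the genotypes overlapped for all 8, whereas all KO libraries lay below all WT libraries for 10.6% of tested genes. The median log2 fold change of the 8 was -0.19 and that of all tested genes was -0.07. Without both libraries of number 3, the log2 fold change of Prss34 was -1.87 (adjusted p = 0.0482, limma), that of Fcer1a was -1.02 (adjusted p = 0.107) and that of Cpa3 was 0.08. That fit called 223 of all tested genes, against 13.

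**Figure D3:**
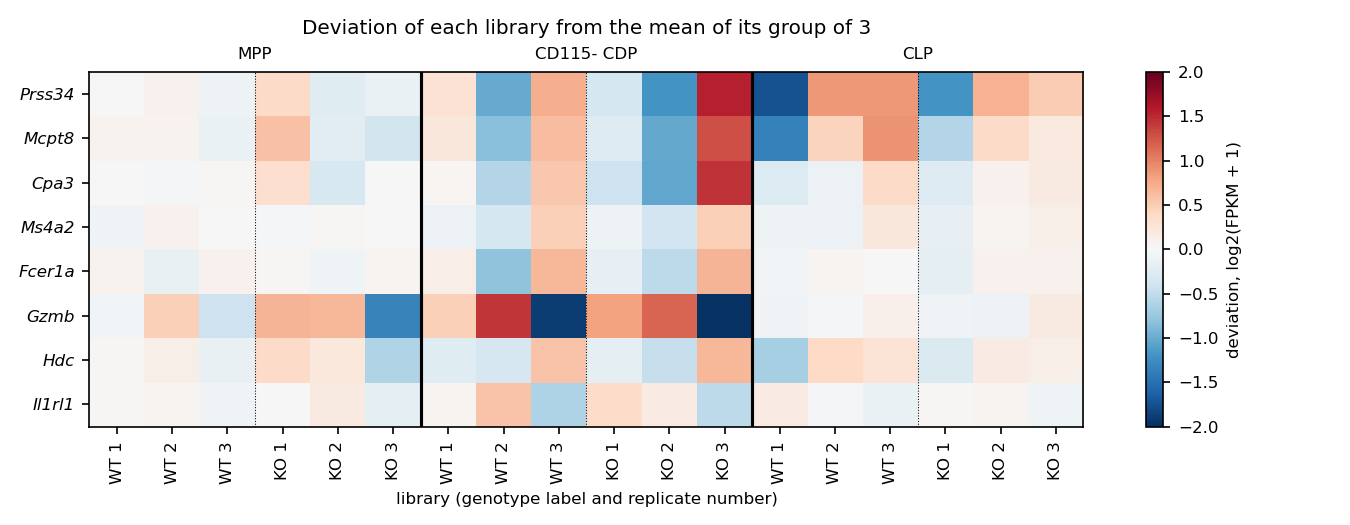
Deviation of each library from the mean of its group of 3, in log2(FPKM + 1), for the 8 genes (rows) and 18 libraries (columns), red above and blue below the group mean. In CD115- CDPs the columns with number 3 are red for 6 genes and blue for Gzmb and Il1rl1 in both genotypes, and in CLPs the columns with number 1 are blue for Prss34, Mcpt8 and Hdc in both genotypes.

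In CLPs the proteases were low and the replicate number again set the largest differences. Prss34 was 1.82, 16.11 and 16.23 FPKM in WT and 0.83, 5.74 and 4.93 FPKM in KO. Library 1 was lowest in both genotypes, and each KO library had 0.456, 0.356 and 0.304 of the Prss34 FPKM of the WT library of its number. The log2 fold change was -1.17 (-2.85 to 0.51, adjusted p = 0.332, limma) without the block, with an interval from -1.58 to -0.76 and an adjusted p of 0.00303 with the replicate block. Mcpt8 was 1.04, 6.08 and 8.67 FPKM in WT and 1.15, 3.21 and 2.72 FPKM in KO. Library 1 did not differ in the direction of the other libraries, at a KO to WT ratio of 1.11 against 0.528 and 0.314, and the adjusted p was 0.429 without and 0.0811 with the block (limma). Without WT library 1, Prss34 had a log2 fold change of -2.04 (adjusted p = 0.0295) and Mcpt8 one of -1.36 (adjusted p = 0.0177, limma), and both were then called.

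Hdc followed the same order of libraries as Prss34 in KO, with library 1 lowest in both genotypes, at 1.23, 3.68 and 3.30 FPKM in WT and 0.87, 1.58 and 1.48 FPKM in KO. It was lower in KO within each number, at ratios of 0.707, 0.429 and 0.448, and its log2 fold change was -0.64 (adjusted p = 0.168 without and 0.0233 with the replicate block, limma), under the minimum fold change in both. Cpa3 was 0.26, 0.40 and 0.98 FPKM in WT and 0.33, 0.68 and 0.81 FPKM in KO, and Il1rl1 was 0.67, 0.47 and 0.37 FPKM in WT and 0.63, 0.68 and 0.52 FPKM in KO; both overlapped, with log2 fold changes of 0.07 and 0.10. Fcer1a, Ms4a2 and Gzmb had means under 0.5 FPKM over the 6 CLP libraries and were not tested. Ms4a2 was 0.18, 0.17 and 0.48 FPKM in WT and 0.02, 0.19 and 0.24 FPKM in KO, and Gzmb was between 0.04 and 0.27 FPKM in all 6.

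Of the 5 genes tested in CLPs none was called without the block, where 2.84% of 12339 tested genes were called lower; 1 of the 5 (Hdc) had an unadjusted p under 0.05, as had 3655 of all tested genes. With the replicate block 1 of the 5 (Prss34) was called lower, against 3.11% of tested genes. The genotypes overlapped for all 8 genes, whereas all KO libraries lay below all WT libraries for 18.6% of tested genes. The median log2 fold change of the 5 genes was -0.64 and that of all tested genes was 0.01.

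An F test of the interaction over all 18 libraries asked whether the change with genotype differed between the populations. Without the block none of the 8 genes passed, against 2.45% of 12421 tested genes; the lowest adjusted p values were 0.201 for Ms4a2 and 0.238 for Cpa3, and their unadjusted p values were 0.0178 and 0.0264 (limma). A block for each replicate number of each population also paired the MPP libraries, whose numbers were not taken as pairs (same-numbered deviations correlated at 0.04 to 0.48). With this block 3 of the 8 passed, against 8.67% of tested genes. The log2 fold change of Cpa3 was then 1.90 ± 0.34 (SE) higher in CD115- CDPs and 1.44 ± 0.34 higher in CLPs than in MPPs (adjusted p = 0.0168, limma), and that of Ms4a2 was 0.78 ± 0.153 and 0.90 ± 0.153 higher than in MPPs (adjusted p = 0.011). The log2 fold change of Fcer1a was 0.81 ± 0.183 higher in CLPs than in MPPs, with a difference of -0.06 ± 0.183 between CD115- CDPs and MPPs (adjusted p = 0.0255). Ms4a2 and Fcer1a averaged less than 0.5 FPKM in CLPs and entered this test through MPPs and CD115- CDPs, where they were higher, so a smaller change in CLPs was set by their level there and their values are a description. Ms4a2 averaged 0.697 FPKM in WT CD115- CDPs and Cpa3 0.547 FPKM in WT CLPs. On log2(FPKM + 1) neither could fall there as far as in MPPs, so these differences are also bound to the level. For Prss34 the differences from MPPs were -0.02 ± 0.363 in CD115- CDPs and 0.27 ± 0.363 in CLPs (adjusted p = 0.759), and no difference between populations was detectable for it at these standard errors.

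How far the genes moved together was described over the 18 libraries, which share populations, genotypes and replicate numbers, so the coefficients carry no p. Pearson r of log2(FPKM + 1) was 0.98 between Prss34 and Mcpt8, 0.95 between Mcpt8 and Hdc and 0.91 between Ms4a2 and Fcer1a. After the mean of each group of 3 was subtracted, r was 0.97 between Prss34 and Mcpt8 and 0.89 between Gzmb and Il1rl1. Between Fcer1a and Gzmb it was then -0.86 and between Fcer1a and Il1rl1 -0.89. Fcer1a deviated by -0.80 to 0.68 in CD115- CDPs, but only by -0.15 to 0.08 in MPPs and -0.18 to 0.09 in CLPs. The last 2 coefficients therefore rest mostly on the CD115- CDP libraries, where number 3 stood apart. The ratio of Prss34 to Mcpt8 FPKM lay between 0.722 and 2.65 in all 18 libraries while Prss34 itself ranged from 0.83 to 128.14 FPKM. In CD115- CDPs it was 1.96, 1.66 and 2.0 in WT and 1.10, 1.04 and 1.41 in KO, without overlap, a comparison chosen after its values were seen.

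Among 11438 other genes whose mean was 1 FPKM or more, the 3 most like each of the 6 genes at this level were found by the same r over 18 libraries. Alox5 (5-lipoxygenase, the first enzyme of leukotriene synthesis) was the nearest to both Prss34 (r = 0.919) and Mcpt8 (r = 0.935), and Tmem176a stood in both lists (r = 0.91 and 0.925). Cpa3 was nearest to Ccl9, Hk3 and Mpo (r = 0.928, 0.923 and 0.921), of which Mpo (myeloperoxidase) is a granule protein of neutrophil precursors. Fcer1a was nearest to Pak1, Tceal8 and Pi16 (r = 0.946, 0.94 and 0.939), and Hdc was nearest to Hp, Cdc42ep4 and Mrpl52 (r = 0.94, 0.935 and 0.931). Gzmb stood with another group, Vps37b, Dusp8 and Tmem200b (r = 0.988, 0.988 and 0.986). The remaining places were held by Tceal8 for Prss34 (r = 0.915) and Capns1 for Mcpt8 (r = 0.921).

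Genes that act with these in basophils and mast cells were taken from lists, each with its count of called genes. Of 10 other mast cell proteases, 5 were listed in the MPP and CD115- CDP tables and 3 in the CLP table. Mcpt4 and Mcpt2 were at 0 in all 12 libraries of MPPs and CD115- CDPs, Tpsab1 reached 0.05 FPKM in 1 library, and Cma1 stayed at or below 0.23 FPKM, so these chymases and tryptases of tissue mast cells were at or near 0. Proteases that were not listed have no value. Ctsg alone was tested, at 112.02, 111.28 and 105.54 FPKM in WT and 112.52, 75.25 and 66.65 FPKM in KO-labelled MPPs, and it was called in no population.

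Of 18 genes of IgE receptor signalling, none was called in MPPs or CD115- CDPs and 1 was called lower in CLPs, with median log2 fold changes of -0.12, -0.32 and -0.23. That gene was Fcer1g, the gamma chain that the IgE receptor shares with other Fc receptors. Fcer1g was 115.01, 159.82 and 126.39 FPKM in WT and 38.28, 31.55 and 30.95 FPKM in KO CLPs, a log2 fold change of -1.95 (adjusted p = 6.09e-05, limma). The chains of the receptor thus had unlike levels in WT CLPs, where the gamma chain lay between 115.01 and 159.82 FPKM and the alpha chain between 0.26 and 0.36. In MPPs Fcer1g was 62.78, 57.35 and 65.75 FPKM in WT and 40.37, 32.53 and 39.79 FPKM in KO-labelled libraries, a fall of 0.71 on the log2 scale (adjusted p = 0.0273, limma), a log2 fold change under the minimum. With the replicate block Fcer1g was also called lower in CD115- CDPs (adjusted p = 0.0283).

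Of 18 genes of mediator synthesis and granule storage, 16 were tested in each population and none was called, with medians of -0.34, -0.12 and -0.18. Srgn (serglycin, the proteoglycan core that holds proteases in granules) was 732.44, 794.22 and 767.13 FPKM in WT and 1101.04, 956.51 and 602.25 FPKM in KO-labelled MPPs, with overlap. Alox5 was 5.29, 5.65 and 4.83 FPKM in WT and 3.36, 1.72 and 3.43 FPKM with the KO label, for a log2 fold change of -0.74 (adjusted p = 0.112, limma).

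Of 23 cytokine receptors and surface proteins, 1 of 19 tested was called lower in MPPs, 1 of 19 in CD115- CDPs, and 3 lower and 2 higher of 16 in CLPs, with medians of -0.26, -0.04 and -0.25. In MPPs it was Itga2b (CD41, an integrin of megakaryocytes and early progenitors), at 9.11, 8.85 and 8.51 FPKM in WT and 4.45, 3.56 and 2.63 FPKM in KO-labelled libraries (log2 fold change -1.13, adjusted p = 0.0232, limma). The chains of the IL-3 receptor were unlike each other. The alpha chain Il3ra was called in no population, with log2 fold changes of -0.10 in MPPs, -0.42 in CD115- CDPs and -0.64 in the CLP libraries. Csf2rb2, the beta chain specific to mouse IL-3, was 14.54, 15.72 and 16.38 FPKM in WT and 2.67, 1.74 and 2.19 FPKM in KO CD115- CDPs (log2 fold change -2.38, adjusted p = 0.0177, limma). It was 52.32, 43.65 and 38.88 FPKM in WT and 2.92, 3.18 and 4.37 FPKM in KO CLPs (log2 fold change -3.36, adjusted p = 6.26e-06, limma). In MPPs it was 4.70, 5.19 and 3.97 FPKM in WT and 3.01, 5.03 and 1.93 FPKM in KO-labelled libraries, with overlap (adjusted p = 0.329, limma). Csf2rb and Csf2rb2 are close copies, and how reads were divided between them was not tested. In CLPs Itgb7 (log2 fold change -2.69) and Csf2rb (-1.63) were called lower and Il18r1 (1.56), a chain of the IL-18 receptor, and Il18rap (1.02) were called higher. With the replicate block 3 of 19 were called lower in CD115- CDPs, where Csf2rb (-1.29, adjusted p = 0.00915) and Itgb7 (-1.62, adjusted p = 0.0189) joined Csf2rb2, and 2 of 19 were called lower in MPPs, where Cd200r1 (-1.04, adjusted p = 0.043) joined Itga2b.

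Of 13 cytokines, MPPs had 8 above the filter, CD115- CDPs had 9 and CLPs had 6, and without the block only Ccl3 in MPPs was called, with medians of -0.07, -0.05 and -0.10. Ccl3, a chemokine that myeloid progenitors also make, was 456.57, 438.47 and 436.95 FPKM in WT and 194.00, 170.52 and 165.90 FPKM in KO-labelled MPPs (log2 fold change -1.33, adjusted p = 0.00182, limma). Areg (amphiregulin, a growth factor of the EGF family) was called lower in CLPs with the replicate block, at 4.85, 8.08 and 15.02 FPKM in WT and 2.10, 1.60 and 5.65 FPKM in KO (log2 fold change -1.33, adjusted p = 0.0718 without and 0.00129 with the block, limma). Il3 was at 0 in all 6 MPP libraries.

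Of 16 transcription factors of these lineages, 2 of 16 were called lower in MPPs, none of 15 in CD115- CDPs and 1 of 15 lower in CLPs, with medians of -0.44, -0.25 and -0.13. In MPPs all 16 estimates were negative, and the median of all tested genes was also negative there, at -0.11. The share of all tested genes with a negative estimate is not given here, so the count alone shows nothing particular to these factors. Gata1, which eosinophils, mast cells and erythroid cells share, was 2.07, 2.44 and 2.43 FPKM in WT and 0.31, 0.30 and 0.56 FPKM with the KO label (log2 fold change -1.26, adjusted p = 0.00617, limma). Tal1 was 16.25, 16.20 and 16.95 FPKM in WT and 6.18, 4.51 and 9.06 FPKM in KO-labelled MPPs (log2 fold change -1.25, adjusted p = 0.035, limma). Gata2, which basophil and mast cell progenitors need, was 33.60, 33.86 and 30.59 FPKM in WT and 30.67, 28.24 and 17.88 FPKM in KO-labelled MPPs. Its KO-labelled library 1 lay inside the WT range, and its log2 fold change was -0.37 (adjusted p = 0.283, limma). Cebpa was 50.21, 49.61 and 50.03 FPKM in WT and 34.32, 34.71 and 33.58 FPKM with the KO label, for a log2 fold change of -0.53 (adjusted p = 0.0204, limma) under the minimum. The gene called in CLPs was Irf8, a factor of DCs and monocytes, at a log2 fold change of -2.72 (adjusted p = 6.26e-06, limma). Irf8 was also called lower in CD115- CDPs with the replicate block, at a log2 fold change of -1.75 (adjusted p = 0.0078). Gata2 and Cebpa were named after their values were seen.

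Markers of other lineages moved with the 8 genes, and their part in the results was not tested. In MPPs 8 of 11 erythroid markers were called lower, their summed FPKM being 511.6 to 532.3 in WT and 135.9 to 187.7 in KO-labelled libraries, with Hba-a1 at a log2 fold change of -6.19. Of the neutrophil and precursor markers 5 of 12 were called lower, with sums of 3582 to 3723 FPKM in WT and 1548 to 2590 in KO-labelled libraries, and Ly6g, at -1.70, was the furthest. The replicate block left 4 of these 12 called lower. Monocyte markers were called lower in 4 of 8 tested, with sums of 241.0 to 281.1 and 111.1 to 239.5 FPKM, and eosinophil markers in 1 of 8 (Ear2, at -1.30), with 107.9 to 137.3 and 41.18 to 104.2 FPKM. The medians of these lists were -1.91, -1.29, -1.22 and -0.69, against -1.0 for the 8 genes. No marker of NK and cytotoxic cells (median -0.01), group 2 innate lymphoid cells (0.23) or plasmacytoid DCs (-0.13) was called in MPPs. Prg2 and Epx, taken here as eosinophil markers, were 73.49 to 98.13 and 8.03 to 11.91 FPKM in WT MPPs, beside the 8 genes. Which cells held these transcripts was not tested.

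In CD115- CDPs none of the markers of eosinophils (median -0.18), neutrophils and their precursors (0.53), erythroid cells (-0.69), group 2 innate lymphoid cells (-0.03), plasmacytoid DCs (-1.02) or monocytes (-1.43) was called without the block, and 1 of 7 NK and cytotoxic markers was called lower (Klrd1, at -1.84; median of the list -0.09). The summed FPKM of group 2 innate lymphoid markers was lowest in library 3 of both genotypes, at 46.77 in WT and 22.73 in KO against 85.61 to 110.6 in the other 4, and Gzmb and Il1rl1 were also lowest in library 3. The neutrophil and precursor sums were highest in library 3, as were Prss34, Mcpt8, Cpa3, Hdc, Fcer1a and Ms4a2. With the replicate block 5 of 9 plasmacytoid DC markers and 5 of 9 monocyte markers were called lower in CD115- CDPs. With it 1 of 5 erythroid markers was called lower (Hba-a1, at -2.05) and 1 higher (Hbb-bt, at 1.68), and of 7 NK and cytotoxic markers 2 were called lower (Klrd1 and Klrk1) and 1 higher (Nkg7, at 1.29). Dntt, which was listed with the CLP gate genes but was not sorted on, was called higher in CD115- CDPs with the block, at 1.17.

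In CLPs all 10 plasmacytoid DC markers were called lower (median -2.15), with sums of 2035 to 2380 FPKM in WT and 480.0 to 532.5 in KO. Monocyte markers were called lower in 3 of 7 (median -0.80), erythroid markers in 2 of 6 (-0.65), and group 2 innate lymphoid markers in 1 of 6 (0.09). Of 7 NK and cytotoxic markers 3 were called lower and 1 higher (median -0.58), and no eosinophil (-0.20) or neutrophil marker (-1.28) was called, although 7 of 12 neutrophil markers were called lower with the block. The sums of neutrophil markers were 404.6 to 1047 FPKM in WT and 228.8 to 403.1 in KO, and unlike Prss34 they were not lowest in library 1 of WT.

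**Figure D4:**
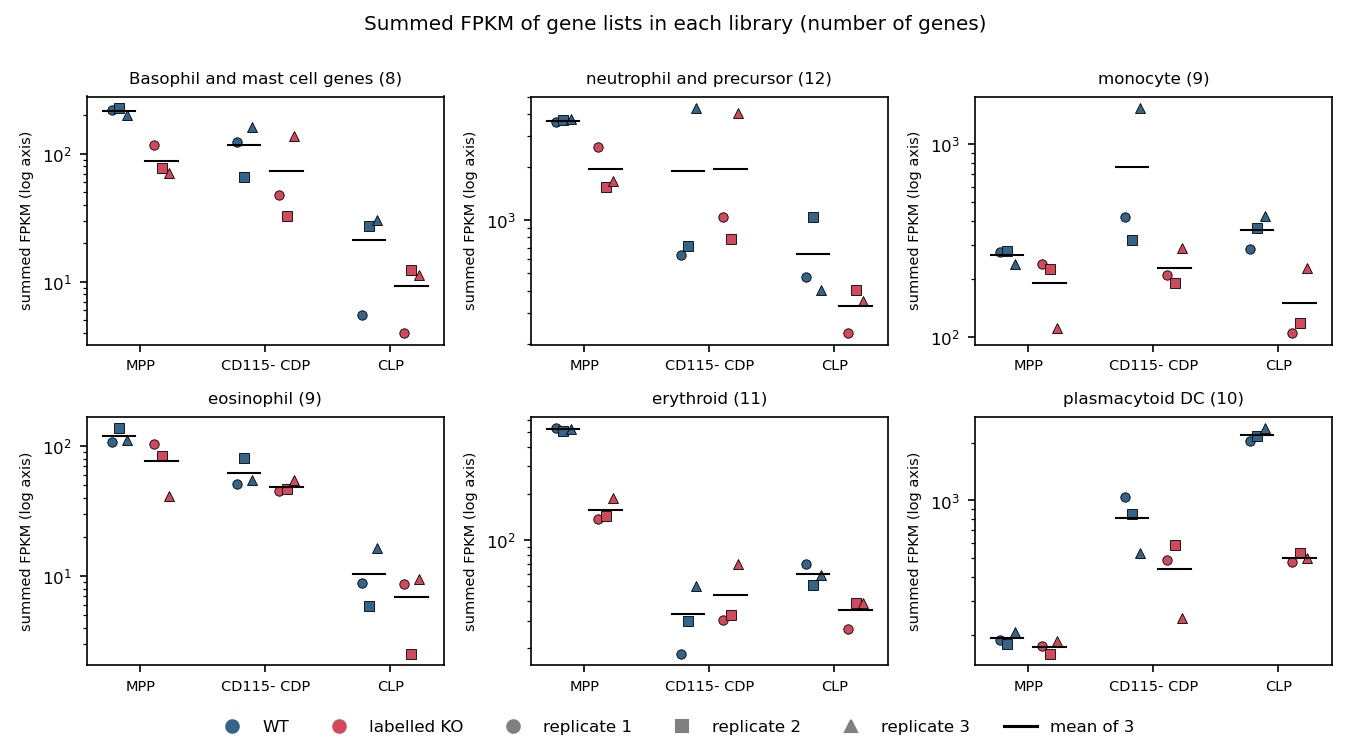
Summed FPKM of the 8 basophil and mast cell genes and of 5 marker lists in every library, on log axes, by population and genotype, with a shape for each replicate number and a bar at the mean of 3 libraries. In MPPs the sums of the 8 genes, 201.91 to 229.14 in WT and 70.28 to 117.35 in KO-labelled libraries, do not overlap, nor do the neutrophil, monocyte, eosinophil and erythroid sums, and in CD115- CDPs library 3 is highest in both genotypes for the 8 genes and for the neutrophil list.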

How the data were processed

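Poly-A RNA of sorted MPPs, CD115- CDPs and CLPs was read as single-end reads of 50 bases. The authors filtered reads with SOAPnuke, aligned them with Bowtie2 2.2.5 and quantified genes with RSEM 1.2.12; HISAT2 2.0.4 is also named, with mm10. The deposited values are FPKM per gene, rounded by the authors to 2 decimals. Read counts were not used here, so no count model was fitted.

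In each population, log2(FPKM + 1) of genes averaging 0.5 FPKM or more was tested with limma 3.58.1 (trend, Benjamini-Hochberg adjustment over all tested genes) in R 4.3.3, and an interaction F test covered all 18 libraries. The fits were tested on simulated data. The labels call the 3 libraries of a group repeats; nothing used here ties their numbers across genotypes. Deviations of same-numbered WT and KO libraries correlated at 0.44 to 0.79 in CD115- CDPs, 0.13 to 0.40 in CLPs and 0.04 to 0.48 in MPPs (different numbers up to 0.66, 0.23 and 0.26), so the numbers were taken as pairs in CD115- CDPs and CLPs, and values with the block are given where they change a call. This pairing was inferred from the same values that were then tested. In CD115- CDPs KO library 1 correlated more with WT library 2 (0.66) than with WT library 1 (0.44). In CLPs WT library 3 correlated more with KO library 2 (0.23) than with KO library 3 (0.13). Depth was estimated from FPKM steps of 998 to 1096 low genes per library with lengths from GENCODE vM21, and reads per gene are approximate because RSEM divides reads.

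The 8 genes and the lists were chosen with earlier results of these data known. Named genes are the 8, Trim33, up to 4 per list and population by fold change if called and otherwise by level, and the nearest genes by correlation. Others fall outside this rule and count as chosen after their values were seen. Among them are Il3ra in every population, and Fcer1g and Csf2rb2 in MPPs. The results of 1 marker list are not reported here. Alternatives were a pseudocount of 0.1, no filter, a filter at 5 FPKM, TPM, median ratio scaling, no trend, the replicate block, no minimum fold and leaving out each library.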

Additional observations from a re-analysis of the deposited data

Results flagged for a closer look

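The interaction of population and genotype passed for Cpa3 (adjusted p = 0.0168), Fcer1a (adjusted p = 0.0255) and Ms4a2 (adjusted p = 0.011) when each replicate number of each population was a block (limma F test), and for none of the 8 genes without the block. The block also paired the MPP libraries by number, although their numbers were not taken as pairs. For Cpa3 the KO to WT ratio of mean FPKM was 0.344 (MPPs), 1.97 (CD115- CDPs) and 1.11 (CLPs), and in the same order it was 0.257, 0.589 and 0.542 for Ms4a2 and 0.406, 0.289 and 0.62 for Fcer1a. The 1.97 of Cpa3 came from number 3, as its ratios by number were 1.07, 1.06 and 2.93. Without KO library 3 the log2 fold change of Cpa3 in CD115- CDPs was -0.20. In WT CLPs Cpa3 averaged 0.547 FPKM and could not fall on this scale as far as in MPPs. In MPPs every KO-labelled library lay below every WT library for each of these genes, under any numbering, as for 23.3% of all tested genes. Cpa3 was lower in KO in none of the 3 numbers in CD115- CDPs and in 1 of 3 in CLPs. Fcer1a and Ms4a2 averaged less than 0.5 FPKM in CLPs and entered the test through the other populations, where they were higher, so on log2(FPKM + 1) a smaller change in CLPs was set by their level there, and their passing is no sign of a different response in CLPs.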

How the results depend on the processing

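Of the 8 genes, 4 were called in MPPs. The count was 2 with a filter at 5 FPKM, where 4 of them were tested, and 2 with median ratio scaling. It was 0 to 5 when 1 library was left out. Without any 1 WT library it was 0, which also left 54 to 60 of all genes called against 183. Without KO library 3 it was 5, with 916 of all genes called, and the gene gained was Gzmb, called higher. Without both libraries of number 1 or of number 2 it was 0, but only 0 and 11 of all genes were then called. In CD115- CDPs it rose from 0 to 2 with the replicate block. Without both libraries of number 3 it was 1, with 223 of all genes called against 13. In CLPs it rose from 0 to 1 with the replicate block and was 0 to 2 when 1 library was left out. It was 2 without WT library 1 and 2 without both libraries of number 1, with 476 and 496 of all genes called against 434. Genes with a passing interaction rose from 0 to 3 with the replicate block, which took the calls over all genes from 304 to 1077, and stayed at 0 with the other pseudocount, filters and scalings, without a trend and when 1 library was left out; it was not run without both libraries of a number. The block took all calls in CD115- CDPs from 13 to 224. Leaving out both libraries of a number was added after the data had been seen. The cause of these changes was not tested.

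Changes of sign were limited to values that passed no test. When 1 library was left out, the log2 fold change ran from -0.20 to 1.05 for Cpa3, -1.06 to 0.87 for Gzmb, -0.34 to 0.27 for Hdc and -0.34 to 0.25 for Il1rl1 in CD115- CDPs, from -0.06 to 0.20 for Cpa3 in CLPs, and from -0.45 to 0.12 for Trim33 in MPPs. Without both libraries of number 2 it was 0.02 for Gzmb, 0.06 for Hdc and 0.17 for Il1rl1 in CD115- CDPs and -0.03 for Cpa3 in CLPs, without both of number 3 it was 0.05 for Trim33 in MPPs, and with median ratio scaling it was 0.03 for Hdc in CD115- CDPs. Of 320 alternative values of the 8 genes, 268 kept their direction and side of the threshold, 24 lost and 12 gained a call, and 16 changed sign, none of them of a called gene. Depth limits the genes near the floor, Fcer1a, Ms4a2 and Gzmb in CLPs.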
